A study of Mus musculus with 9 samples.

Results

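The genes described are the transcription factor p53 (Trp53) and 9 of its best known target genes, Mdm2, Cdkn1a, Ccng1, Bax, Bbc3, Trp53inp1, Sesn1, Sesn2 and Gdf15. They are the 10 genes of that set among the 56748 genes of the deposited expression table, found there by gene symbol, and all 10 were expressed well enough to be tested. RNA was sequenced from wild-type (WT) primary mouse airway basal stem cells, taken from the trachea and grown as an air-liquid interface (ALI) culture, in which the upper cell surface meets air. Libraries came from day 1, day 3 and day 5, with 3 replicates on each day. The submitters' design text ties day 1 to proliferation of the basal cells, day 3 to stratification and day 5 to the specification of luminal cells. The labels name no mutant and no DNA-damaging agent, so each comparison is between days of culture of WT cells, and nothing in the labels tells if replicates are separate animals or cultures, or if the days share one. If they are not, the p-values measure a spread that may be technical.

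p53 is a DNA-binding protein that is made and destroyed continuously in unstressed cells. Damage or other stress slows its destruction, so its activity is set mainly through the protein and not through its mRNA. The stabilised protein switches on genes that stop the cell cycle, promote cell death, repair DNA or alter metabolism, together with Mdm2, whose product marks p53 for destruction. Several of these targets are also switched on by other factors, among them ATF4, a factor of the integrated stress response, and p63, a p53 relative that marks basal cells.

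p53 binds pairs of a 10-letter repeat, the p53 decamer. RefSeq promoter windows (GRCm38.p6), which run from 250 bases before a gene's start to 50 after it, were found for 9 of the 10 genes. The decamer, which reads the same on both strands, was present in a window of 6 of these 9 genes, against 9.55% of all 27025 genes with a window. The set was chosen as known p53 targets, so this count is a description. The stretches around these matches are shown because they place the decamer near the start of genes whose levels are described below; capitals mark the decamer, each line runs 5′ to 3′ on the gene's own strand, and coordinates are GRCm38.p6.
Trp53, chr11:69580254-69580323, plus strand: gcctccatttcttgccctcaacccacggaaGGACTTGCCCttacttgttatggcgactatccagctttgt
Mdm2, chr10:117710905-117710974, minus strand: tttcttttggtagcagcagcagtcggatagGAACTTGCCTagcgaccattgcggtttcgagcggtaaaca
Cdkn1a, chr17:29090876-29090967, plus strand: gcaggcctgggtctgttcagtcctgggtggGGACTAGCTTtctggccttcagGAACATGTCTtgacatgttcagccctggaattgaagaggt
Ccng1, chr11:40755432-40755501, minus strand: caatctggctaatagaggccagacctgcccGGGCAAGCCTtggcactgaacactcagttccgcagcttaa
Bax, chr7:45467060-45467129, minus strand: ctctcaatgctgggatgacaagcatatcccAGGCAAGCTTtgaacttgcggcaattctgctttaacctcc
Sesn1 (second start), chr10:41887236-41887305, plus strand: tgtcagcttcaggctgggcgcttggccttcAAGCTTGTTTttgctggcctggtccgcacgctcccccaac

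The Cdkn1a stretch holds 2 decamers, which begin 73 and 51 bases before the start, and only 0.359% of all windows hold more than 1. The other decamers begin 75 bases before the start in Trp53, 186 in Mdm2, 185 in Ccng1, 201 in Bax and 173 in Sesn1. The windows of Bbc3, Sesn2 and Gdf15 held none, nor did those at the second start of Cdkn1a and the first of Sesn1. The letters TGATGNAA, a form of the element that ATF4 binds, were searched on both strands and were in no window of these 9 genes, against 4.51% of all genes. A match is a string of letters and not a measured binding site, and these windows leave out introns and distal elements.

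Libraries held 16.4 to 35.1 M recovered reads, with means of 30.8 ± 4.29 M for day 1, 21.9 ± 2.55 M for day 3 and 17.6 ± 1.51 M for day 5 (SD, n = 3). Values are normalized counts, which are reads divided by a size factor for each library. The change of a gene varied with its transcript length: between day 1 and day 3 the median log2 change was 0.62 in the shortest of 5 equal bins of genes by length and −0.73 in the longest, and between day 3 and day 5 it was −0.78 and 0.37. Each library was therefore also corrected by taking out a smooth trend on length and GC content, and the corrected value of a change described here is given where it alters the call or turns the direction, and for some others. The summed level of 5 airway basal markers ranged over 163020 to 189040, 98062 to 101230 and 49645 to 64958 normalized counts on days 1, 3 and 5, and that of 5 epithelial markers over 51165 to 52746, 70485 to 81717 and 39986 to 46880. Most of the basal sum was Krt5, with means of 108200, 82486 and 38922. Ngfr ran the other way, at 359, 1581 and 1990. Itga6 fell at both steps, and Krt14 and Trp63 were lowest on day 3. Among the epithelial markers Cdh1 was lowest on day 3, at 16612, 8784 and 10259, while the others were highest then. Of 8 fibroblast markers 1 passed the filter on low counts, Dcn, which had no read on days 1 and 3 and averaged 112 on day 5; the list summed to 6.10 to 14.9, 4.02 to 8.88 and 103 to 130. Of 8 leukocyte markers 2 passed, and the sum of 254 to 284, 1561 to 1728 and 166 to 200 was nearly all Cd68, with no read of Tyrobp. Of 6 endothelial markers 1 passed, with a sum of 5.81 to 15.2, 14.8 to 25.0 and 7.38 to 11.9 and no read of Cldn5. The summed level of 4 Y-linked genes was 3027 to 3253, 299.9 to 348 and 401 to 575 and that of Xist 1548 to 2018, 5416 to 6346 and 6117 to 8698, so the libraries of day 1 also stood apart in this respect. Every comparison with day 1 is thus also between libraries that differ in sex-linked RNA. Day 3 and day 5 differed less, but their Y-linked sums did not overlap either. Kdm5d and Uty were 3.08-fold and 2.25-fold higher on day 5, while Ddx3y, Eif2s3y and Xist overlapped. Day of culture and these shifts cannot be told apart. The part of marker content and of these shifts in the results was not tested. In bulk RNA fewer cells of a type and less RNA per cell cannot be told apart.

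Trp53, which encodes p53 itself, was highest on day 1 and lowest on day 5. Its normalized counts were 3770, 4681 and 3853 on day 1, 2257, 2426 and 2536 on day 3, and 1698, 2152 and 2005 on day 5. No library of one day overlapped with those of another. Trp53 fell by 0.76 on the log2 scale on day 3 relative to day 1 (SE 0.12, limma adjusted p = 0.000157), a 1.70-fold lower mean. It fell by 1.07 on the log2 scale on day 5 relative to day 1 (adjusted p = 1.11e-05). The step between day 3 and day 5 was small, at −0.31 (adjusted p = 0.0378), and lost its call with TMM factors (adjusted p = 0.062), with quantile normalization (−0.0033, adjusted p = 0.98), with no low-count filter (adjusted p = 0.064), and without day 1 replicate 3, day 3 replicate 2 or 3, or day 5 replicate 1 or 3 (adjusted p of 0.051 to 0.11).

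Mdm2, the ubiquitin ligase that targets p53 for destruction and is itself a p53 target, ran the same way. Normalized counts of this gene were 3539, 2987 and 3588 on day 1, 1902, 1711 and 2147 on day 3, and 1733, 1474 and 1301 on day 5. All day 1 libraries were above all later ones, while day 3 and day 5 overlapped. Mdm2 fell by 0.81 on the log2 scale on day 3 relative to day 1 (SE 0.13, limma adjusted p = 0.000209). By day 5 it had fallen by 1.17 on the log2 scale relative to day 1 (adjusted p = 1.23e-05). The later step of −0.36 (adjusted p = 0.0309) lost its call with TMM factors (adjusted p = 0.085), with quantile normalization (−0.12, adjusted p = 0.47) and without day 3 replicate 1 or 3, or day 5 replicate 2 or 3 (adjusted p of 0.069 to 0.11).

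**Figure D1:**
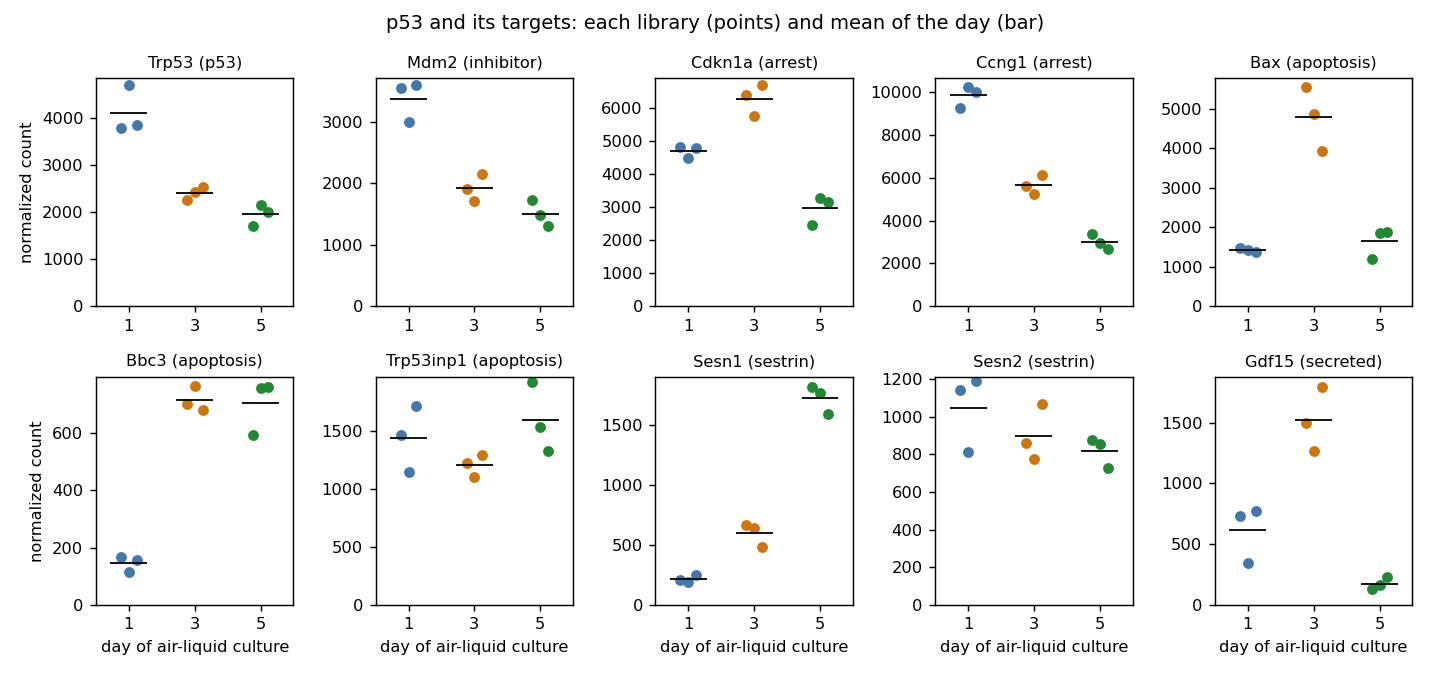
Normalized count (vertical axis, from 0, its own scale in each panel) of each of the 10 genes against day of air-liquid culture; each point is 1 library and each bar the mean of a day's 3 libraries. Trp53, Mdm2 and Ccng1 are highest on day 1, Sesn1 on day 5, and Cdkn1a, Bax and Gdf15 are highest on day 3.

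Cdkn1a encodes p21, the inhibitor of cyclin-dependent kinases through which p53 arrests the cycle. The 9 libraries gave normalized counts of 4817, 4495 and 4805 on day 1, 6395, 5776 and 6691 on day 3, and 2473, 3284 and 3163 on day 5. Every day 3 library was above every other library, and every day 5 library was below every other. Cdkn1a rose by 0.42 on the log2 scale on day 3 relative to day 1 (SE 0.12, limma adjusted p = 0.00773), a 1.34-fold higher mean. That small rise turned to −0.25 (adjusted p = 0.024) after correction for length and GC. The drop after day 3 was much the same with and without it: Cdkn1a fell by 1.09 on the log2 scale on day 5 relative to day 3 (adjusted p = 2.13e-05), and by 1.07 after correction (adjusted p = 2.64e-06). Day 5 relative to day 1 was −0.67 (adjusted p = 0.000352), −1.32 after correction (adjusted p = 2.01e-07), and −0.27 without a call under quantile normalization (adjusted p = 0.066). An annotated gene on the opposite strand, AC167363.2, covers 7.68% of the exonic bases of Cdkn1a, and whether counting used strand is not given in the sources used here.

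Ccng1 encodes cyclin G1, a target that takes part in feedback on Mdm2 and p53, and was the most abundant of the 10 per length on day 1. Its normalized counts were 9261, 10259 and 10012 on day 1, 5615, 5218 and 6139 on day 3, and 3363, 2952 and 2650 on day 5. The 3 days did not overlap at either step. Ccng1 fell by 0.80 on the log2 scale on day 3 relative to day 1 (SE 0.11, limma adjusted p = 6.78e-05) and by a further 0.92 on day 5 relative to day 3 (adjusted p = 4.22e-05). Its mean was 3.29-fold lower on day 5 than on day 1 (log2 change −1.73, adjusted p = 1.98e-07). After correction for length and GC the first step was smaller, at −0.32 (adjusted p = 0.00197), and the second was −1.19 (adjusted p = 2.67e-07).

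Bax, the effector that opens pores in the outer mitochondrial membrane, peaked on day 3. Libraries had normalized counts of 1469, 1422 and 1369 on day 1, 5555, 4870 and 3931 on day 3, and 1184, 1867 and 1887 on day 5. All day 3 libraries were above all others, and day 1 lay within the range of day 5. Bax rose by 1.74 on the log2 scale on day 3 relative to day 1 (SE 0.18, limma adjusted p = 1.07e-05), a 3.37-fold higher mean, and fell by 1.56 on the log2 scale on day 5 relative to day 3 (adjusted p = 3.69e-05). After correction for length and GC both steps kept their direction and call, at 0.79 (adjusted p = 6.17e-05) and −1.16 (adjusted p = 5.37e-06). Day 5 relative to day 1 was 0.18 (95% interval −0.22 to 0.58, adjusted p = 0.377), and −0.37 after correction (adjusted p = 0.00871). Without day 5 replicate 1, the lowest library of its day, it was 0.40 (adjusted p = 0.016), and under quantile normalization 0.50 (adjusted p = 0.027). At 1100 bases Bax has the shortest transcript of the 10, and 12.2% of its exonic bases are shared with the same-strand gene Gm45808.

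Bbc3 encodes PUMA, a BH3-only protein that relieves the block on Bax and Bak1. Its normalized counts were 166, 115 and 156 on day 1, 701, 763 and 682 on day 3, and 592, 759 and 761 on day 5. Every library of day 3 and day 5 was above every library of day 1, and day 3 and day 5 overlapped. Bbc3 rose by 2.30 on the log2 scale on day 3 relative to day 1 (SE 0.16, limma adjusted p = 1.08e-06), a 4.90-fold higher mean, or 1.24 after correction for length and GC (adjusted p = 5.14e-05). Day 5 relative to day 3 was −0.03 (95% interval −0.38 to 0.32, adjusted p = 0.87). On day 5 Bbc3 was thus above its day 1 range in all 3 libraries, whereas Bax overlapped with its own.

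Trp53inp1, which encodes a nuclear and autophagy-linked protein that promotes p53-dependent death, passed the test in none of the 3 comparisons without correction for length and GC. Normalized counts came to 1469, 1145 and 1719 on day 1, 1224, 1107 and 1298 on day 3, and 1929, 1535 and 1334 on day 5. Day 1 overlapped with both later days, while day 5 lay above day 3. The change was −0.24 on day 3 relative to day 1 (95% interval −0.61 to 0.13, limma adjusted p = 0.215) and 0.39 on day 5 relative to day 3 (0.02 to 0.76, adjusted p = 0.0583). The change on day 5 relative to day 1 was 0.15 (−0.22 to 0.52, adjusted p = 0.425). With 5432 bases it has the longest transcript of the 10, and after correction for length and GC the first value became 0.69 (adjusted p = 0.000699) the second −0.08 (adjusted p = 0.622) and the third 0.61 (adjusted p = 0.0013). Under quantile normalization the second was 0.58 (adjusted p = 0.013) and the third 0.48 (adjusted p = 0.027). The second also passed in a fit of only the 2 days (adjusted p = 0.044) and without day 1 replicate 2 or 3 or day 5 replicate 3 (adjusted p of 0.034, 0.047 and 0.024). Without day 1 replicate 2 the first was −0.40 (adjusted p = 0.048), so no direction is given for this gene.

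The sestrins, stress proteins that restrain the growth kinase complex mTORC1, split. Sesn1 had normalized counts of 206, 192 and 252 on day 1, 669, 640 and 481 on day 3, and 1818, 1763 and 1595 on day 5. The days did not overlap, and Sesn1 was the only one of the 10 that was higher at each step. It rose by 1.45 on the log2 scale on day 3 relative to day 1 (SE 0.15, limma adjusted p = 9.82e-06) and by 1.54 on day 5 relative to day 3 (adjusted p = 1.05e-05). Its mean on day 5 was 7.97-fold that of day 1 (log2 change 3.00, adjusted p = 4.29e-08), and the corrected log2 change was 2.96 (adjusted p = 1.71e-08).

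Sesn2, the sestrin also induced by ATF4, had normalized counts of 1141, 811 and 1189 on day 1, 859, 774 and 1066 on day 3, and 875, 854 and 726 on day 5. All 3 days overlapped. Its change was −0.21 on day 3 relative to day 1 (95% interval −0.58 to 0.16, limma adjusted p = 0.27) and −0.13 on day 5 relative to day 3 (−0.50 to 0.24, adjusted p = 0.51). The first value became −0.69 after correction for length and GC (adjusted p = 0.00353) and −0.39 without day 1 replicate 2 (adjusted p = 0.041). Day 5 relative to day 1 was −0.34 (adjusted p = 0.0854), −0.73 after correction (adjusted p = 0.00229) and −0.51 without that library (adjusted p = 0.011).

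Gdf15, a secreted stress hormone of the TGF-beta superfamily, changed most of the 10 after day 3. Its normalized counts were 735, 342 and 770 on day 1, 1499, 1271 and 1794 on day 3, and 128, 165 and 226 on day 5. The days did not overlap, with day 3 on top and day 5 at the bottom. Gdf15 fell by 3.15 on the log2 scale on day 5 relative to day 3 (SE 0.30, limma adjusted p = 1.07e-05), an 8.78-fold lower mean. On day 3 relative to day 1 it rose by 1.38 on the log2 scale (adjusted p = 0.00187), but by 0.41 with no call after correction for length and GC (adjusted p = 0.219). Day 5 relative to day 1 was −1.77 (adjusted p = 0.000331).

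**Figure D2:**
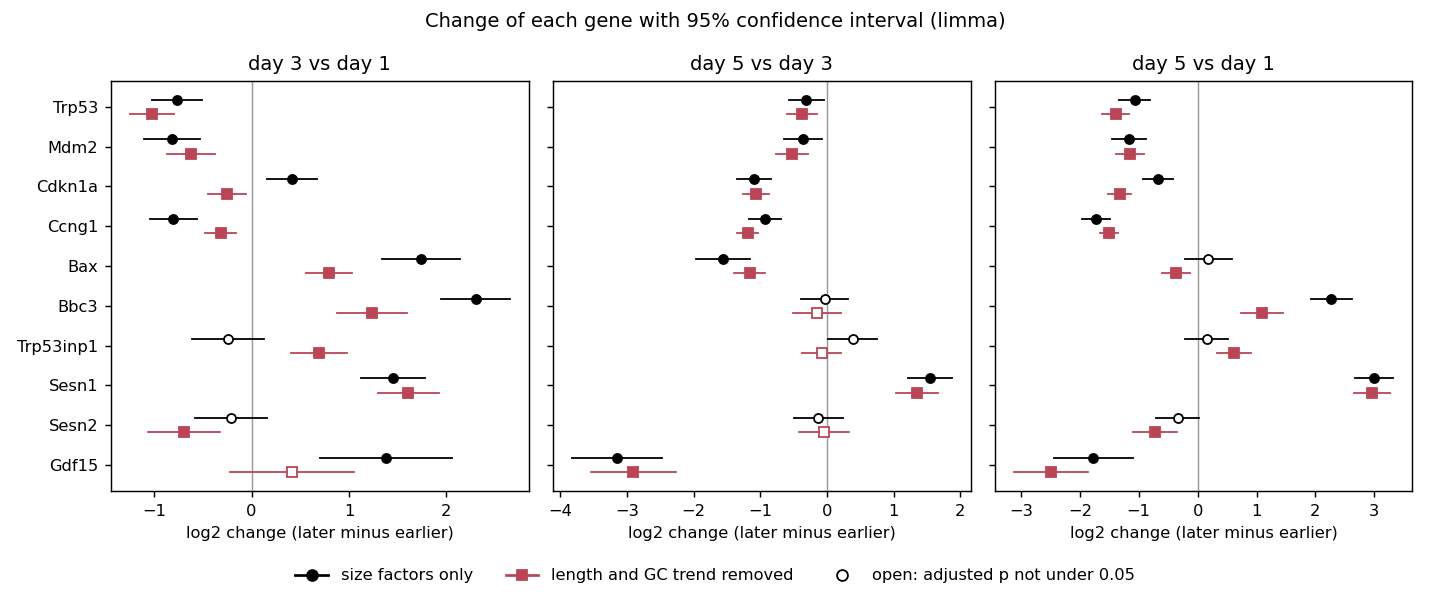
Log2 change, later day minus earlier day (horizontal axis), with its 95% confidence interval from limma for the 10 genes in the 3 comparisons; circles use size factors only, squares are corrected for length and GC, and open symbols did not pass an adjusted p of 0.05. Bbc3 and Sesn1 stay right of zero on day 3 relative to day 1 in both, while Cdkn1a and Trp53inp1 lie on opposite sides of zero.

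Across the 10 genes, 8 passed limma's test for any difference among the 3 days, against 91.4% of the 17338 genes tested. On day 3 relative to day 1, 8 passed, against 73.0% of all tested genes: 5 rose (36.1% of all tested genes rose) and 3 fell (37.0% fell), and the libraries of the 2 days did not overlap for 8 of 10 genes, against 77.3% of all genes. On day 5 relative to day 3, 7 passed (67.3% of all genes): 1 rose (34.8% of all genes) and 6 fell (32.4%), and 7 of 10 did not overlap (71.0%). On day 5 relative to day 1, 7 passed (74.5%): 2 rose (36.7%) and 5 fell (37.7%), and 7 did not overlap (76.8%). The median log2 change of the 10 was 0.10, −0.33 and −0.51 in these comparisons, beside 0.00, 0.06 and −0.06 for all tested genes. Most of the transcriptome differed between any 2 days, so a call for one of these genes does not set it apart.

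The step after day 3 was set against the step before it in the same limma fit. It differed for 4 of the 10, against 70.7% of all tested genes, and was lower for each of the 4. The difference of the log2 changes was −4.53 for Gdf15 (SE 0.53, adjusted p = 4.27e-05), −3.30 for Bax (SE 0.31, adjusted p = 1.64e-05), −2.33 for Bbc3 (SE 0.27, adjusted p = 4.53e-05) and −1.50 for Cdkn1a (SE 0.20, adjusted p = 9.45e-05). With size factors only, Cdkn1a, Bax and Gdf15 rose and then fell, whereas Bbc3 rose and then had no called change. After correction for length and GC the first step of Cdkn1a was −0.25 (limma adjusted p = 0.024). That of Gdf15 was 0.41 without a call (adjusted p = 0.22), so the rise of these genes depends on the correction. After correction for length and GC, 7 of the 10 differed between the steps, against 11588 of all 17046 genes tested in that setting.

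Levels were compared between genes per kilobase of the longest annotated transcript, without the correction for the trend on length and GC. On day 1 Ccng1 led at 2803 ± 148 normalized counts per kb, followed by Cdkn1a at 2262 ± 87.6 and Bax at 1291 ± 45.9 (SD, n = 3). Trp53, at 1252 ± 154, did not differ from Bax beyond the spread, and Sesn1 (56.8 ± 8.20) and Bbc3 (80.5 ± 14.8) were lowest, with overlapping libraries. On day 3 Bax led at 4350 ± 741, with every library above those of Cdkn1a at 3023 ± 224, and Sesn1 was still lowest at 157 ± 26.7. On day 5 Bax (1496 ± 364) and Cdkn1a (1430 ± 210) overlapped at the top, Sesn1 had reached 453 ± 30.5, within the range of Mdm2 at 478 ± 69.2, and Gdf15 was lowest at 112 ± 32.2. The mRNA of Bax was thus above that of Trp53 per length on days 3 and 5.

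**Figure D3:**
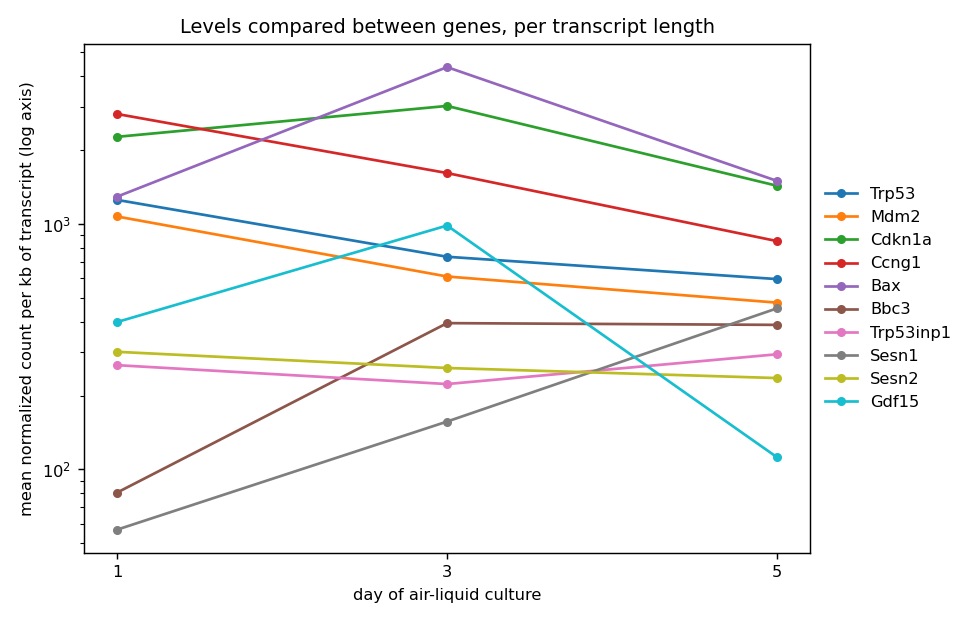
Mean normalized count per kb of transcript (vertical log axis) of the 10 genes against day of culture, each point the mean of 3 libraries. Bax moves to the top on day 3 at 4350, Gdf15 drops to the bottom on day 5 at 112, and Sesn1 climbs through the lower ranks. The levels are not corrected for the trend on length and GC.

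Among 9904 genes with a mean of at least 100 normalized counts on every day, those most like Trp53 over the 9 libraries were Noa1 (Pearson's r 0.996), Ptpn2 (0.994) and Yrdc (0.994). Those most like Cdkn1a were Stbd1 (0.996), Tincr (0.994) and Esd (0.990). The libraries fall into 3 days, so these values mostly describe a shared order of days, and 1232 genes had an r above 0.9 with Trp53 and 606 with Cdkn1a.

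Of 15 genes of the p53 family and its upstream control, 4 rose and 9 fell on day 3 relative to day 1, and 4 rose and 3 fell on day 5 relative to day 3; the medians were −0.83 and 0.10. After correction 5 rose and 9 fell at the first step and 3 rose and 8 fell at the second (medians −0.44 and −0.20). Over all tested genes, without correction, 36.1% rose and 37.0% fell at the first step and 34.8% rose and 32.4% fell at the second. With correction, 6206 of 17046 tested genes rose and 6035 fell at the first step (median 0.02). At the second, 5456 rose and 6056 fell (median −0.04). Trp63, the p53 relative of basal cells, averaged 3811 ± 704, 1644 ± 155 and 2798 ± 472 normalized counts on days 1, 3 and 5. Its log2 change was −1.20 on day 3 relative to day 1 (limma adjusted p = 4.73e-05) and 0.76 on day 5 relative to day 3 (adjusted p = 0.00156). After correction for length and GC these were −0.44 (adjusted p = 0.00374) and 0.42 (adjusted p = 0.00569), and the second had no call (0.23, adjusted p = 0.11) when the correction also took out the level of each library. Trp73, the third relative, averaged 32.3 ± 1.56, 69.8 ± 20.7 and 281 ± 18.4, and rose at both steps, by 1.04 (adjusted p = 0.00221) and 2.04 (adjusted p = 3.77e-05); 5.06% of its exonic bases lie under the antisense gene Trp73os. Mdm4, the partner of Mdm2, averaged 2421 ± 171, 2002 ± 55.3 and 2411 ± 452 and passed at neither step (adjusted p of 0.0724 and 0.0984), but both values turned round and passed after correction (0.71 and −0.20). Without correction the first passed in a fit of only the 2 days and without day 5 replicate 1 or 3 (−0.27 each), and the second under quantile normalization (0.56) and without day 5 replicate 3 (0.38). Ppm1d, a phosphatase that switches the response off, averaged 565 ± 28.1, 420 ± 20.3 and 380 ± 3.45 and fell by 0.43 on the log2 scale on day 3 relative to day 1 (adjusted p = 0.00222). On day 5 relative to day 3 Ppm1d had −0.14 (adjusted p = 0.214), and −0.32 with a call after correction (adjusted p = 0.007).

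Of the genes in this list, Atm and Hipk2, kinases that act on p53, had the largest called changes at either step, both on day 3 relative to day 1. Atm, the kinase that senses double-strand breaks, averaged 857 ± 148, 86.9 ± 4.81 and 148 ± 127, and was 9.86-fold lower on day 3 than on day 1 (log2 change −3.27, limma adjusted p = 7.99e-05). Its transcript, at 9819 bases, is in the range where most genes were lower on day 3, and after correction for length and GC the change was −2.11 (adjusted p = 0.000265). The change on day 5 relative to day 3 was 0.42 (adjusted p = 0.428) and −0.14 after correction (adjusted p = 0.74); replicate 1 of day 5 held 293 and the other two 92.9 and 57.8. Hipk2, which phosphorylates p53, averaged 648 ± 118, 148 ± 11.9 and 103 ± 57.1 and fell by 2.11 on the log2 scale on day 3 relative to day 1 (adjusted p = 0.000116). On day 5 relative to day 3 Hipk2 had a change of −0.64 (adjusted p = 0.088), which gained a call after correction (−0.97, adjusted p = 0.0051), under quantile normalization (−0.99, adjusted p = 0.024) and without day 5 replicate 1 (−1.06, adjusted p = 0.0012). Cdkn2a, whose ARF product blocks Mdm2, averaged 76.8 ± 12.2, 212 ± 31.3 and 61.9 ± 17.6: it rose by 1.45 on day 3 relative to day 1 (adjusted p = 0.000299) and fell by 1.79 on the log2 scale on day 5 relative to day 3 (adjusted p = 0.000112).

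Of 10 further targets in cell cycle arrest, 9 were tested; 3 rose and 4 fell on day 3 relative to day 1, and 1 rose and 8 fell on day 5 relative to day 3, with medians of 0.00 and −1.09 (−0.74 and −0.89 after correction, with 4 higher and 5 lower at the first step). Without correction, 36.1% of all tested genes rose and 37.0% fell at the first step, and 34.8% and 32.4% at the second. With it, 6206 of 17046 rose and 6035 fell at the first step. Psrc1, a spindle protein, averaged 728 ± 11.8, 1654 ± 103 and 362 ± 93.5 on days 1, 3 and 5, and fell by 2.22 on the log2 scale on day 5 relative to day 3 (limma adjusted p = 1.36e-06). Gadd45a, a growth arrest gene, averaged 189 ± 44.9, 526 ± 9.62 and 301 ± 61.7 (log2 change −0.83 at that step, adjusted p = 0.00456); 19.1% of its exonic bases lie under an opposite-strand gene. Plk2, a polo-like kinase, averaged 9824 ± 1426, 3616 ± 801 and 2170 ± 247 and fell at both steps, by 1.46 and 0.72 on the log2 scale (adjusted p of 2.05e-05 and 0.00324), the second without a call under quantile normalization (adjusted p = 0.077). Btg2, an antiproliferative gene, went the other way, with 1480 ± 390, 2585 ± 433 and 8660 ± 1162, and was the 1 that rose after day 3 (log2 change 1.75, adjusted p = 3.41e-05).

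Of 13 further targets in apoptosis, 4 rose and 5 fell on day 3 relative to day 1, and 2 rose and 9 fell on day 5 relative to day 3, with medians of 0.04 and −0.59 (−0.22 and −0.71 after correction). The uncorrected shares of all tested genes were 36.1% higher and 37.0% lower, then 34.8% higher and 32.4% lower. Siva1, a proapoptotic adaptor, rose and then fell as Bax did, at 624 ± 46.0, 2545 ± 449 and 1046 ± 252 on days 1, 3 and 5 (log2 changes 2.01 and −1.30, limma adjusted p of 5.27e-06 and 0.000157). Every day 5 library of Siva1 was above its day 1 libraries (756 to 1206 against 572 to 660), whereas those of Bax overlapped. Pmaip1, which encodes the BH3-only protein NOXA, averaged 2674 ± 115, 1805 ± 335 and 558 ± 42.9 and fell at both steps, by 0.58 and 1.68 on the log2 scale (adjusted p of 0.0017 and 2.11e-06). Eda2r, a receptor of the TNF receptor family, averaged 558 ± 59.5, 174 ± 20.2 and 115 ± 18.2 and also fell at both (−1.68 and −0.59, adjusted p of 6.51e-06 and 0.00768). Casp1, the protease of the inflammasome, had the largest change of this list, at 9.92 ± 1.39, 217 ± 31.5 and 474 ± 59.1 (4.31 and 1.13, adjusted p of 1.35e-07 and 0.000483).

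**Figure D4:**
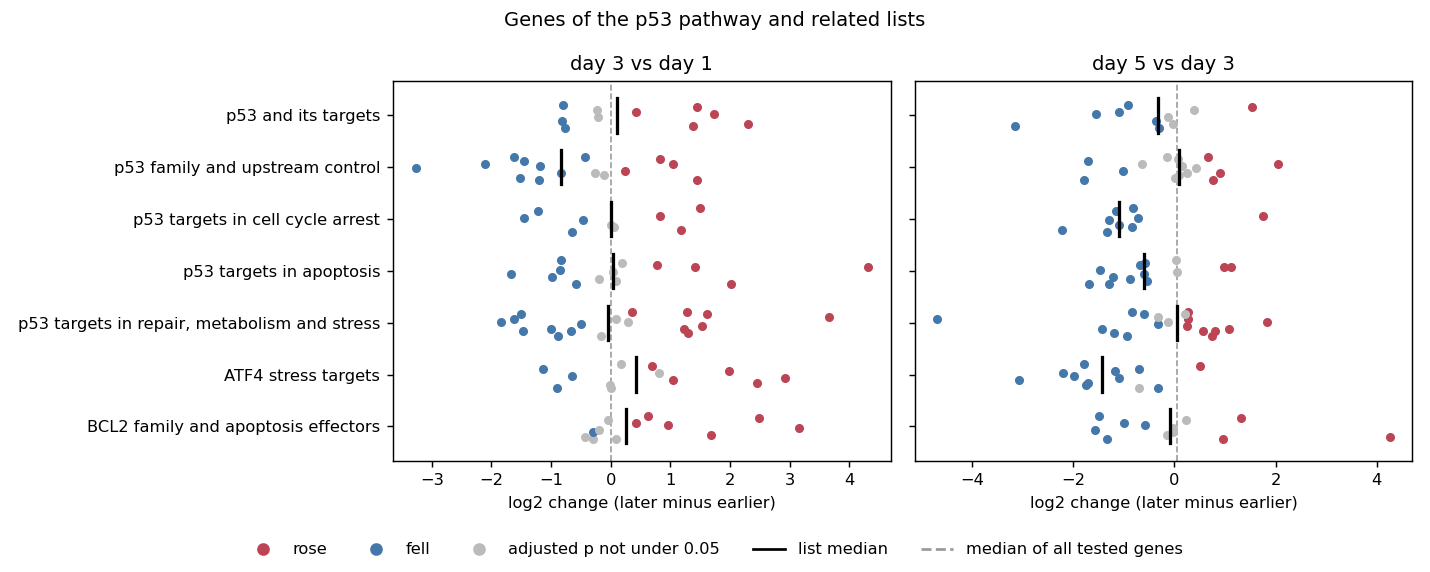
Log2 change, later day minus earlier day (horizontal axis), of each tested gene in the 10 genes of the set and in 6 lists; colour gives the limma call at an adjusted p of 0.05, black bars are list medians and the dashed line is the median of all tested genes. On day 5 relative to day 3 the medians of the arrest and ATF4 lists lie at −1.09 and −1.44.

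The 18 targets in repair, metabolism and stress showed no common direction: 7 rose and 8 fell on day 3 relative to day 1, 8 rose and 7 fell on day 5 relative to day 3, and the medians were −0.04 and 0.05. Among all tested genes 36.1% rose and 37.0% fell at the first step, and 34.8% and 32.4% at the second. Gls2, a mitochondrial glutaminase, averaged 238 ± 18.1, 76.7 ± 6.28 and 2.46 ± 2.34 on days 1, 3 and 5, with single reads in the lowest libraries of day 5 (log2 changes −1.62 and −4.68, limma adjusted p of 0.00309 and 3.9e-06). Dcxr, a sugar and carbonyl reductase, averaged 943 ± 140, 12055 ± 2436 and 9564 ± 1826, 12.8-fold higher on day 3 than on day 1 (log2 change 3.67, adjusted p = 2.42e-07); day 5 relative to day 3 was −0.33 (adjusted p = 0.14), but 0.36 with a call after correction for length and GC (adjusted p = 0.023) and −0.51 with a call without day 3 replicate 3 (adjusted p = 0.028), so no direction is given for that step. Ddb2, a nucleotide excision repair protein, was lowest on day 3, at 226 ± 12.4, 70.6 ± 45.0 and 226 ± 37.2 (−1.84 and 1.82, adjusted p of 0.000587 and 0.000885), and 23.8% of its exonic bases lie under the opposite-strand gene Acp2. Cd82, a tetraspanin of the cell surface, averaged 546 ± 68.5, 1659 ± 94.0 and 1934 ± 202 and rose by 1.61 on day 3 relative to day 1 (adjusted p = 1.42e-06). Its change on day 5 relative to day 3 was 0.22 (adjusted p = 0.122), and passed after correction (0.35, adjusted p = 0.0079) and under quantile normalization (0.47, adjusted p = 0.0043).

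The stress factor ATF4 shares Sesn2 and Gdf15 with p53, so a list of other ATF4 targets, which also holds Atf4 itself, was counted. Of its 12 genes, 5 rose and 3 fell on day 3 relative to day 1, and 1 rose and 10 fell on day 5 relative to day 3; the medians were 0.43 and −1.44. After correction 3 rose and 3 fell at the first step, with a median of 0.09, and 1 rose and 11 fell at the second. For all tested genes without correction, 36.1% rose and 37.0% fell at the first step, and 34.8% and 32.4% at the second. With correction, 6206 of 17046 rose and 6035 fell at the first step, and 5456 rose and 6056 fell at the second. The Atf4 gene averaged 8358 ± 921, 8365 ± 452 and 6661 ± 570 on days 1, 3 and 5 and is 1 of the 10 that fell after day 3 (−0.33, limma adjusted p = 0.0218). Trib3, a pseudokinase, averaged 336 ± 162, 629 ± 99.9 and 77.4 ± 29.9 on days 1, 3 and 5 and was 8.13-fold lower on day 5 than on day 3 (log2 change −3.06, limma adjusted p = 7.91e-05). Its rise on day 3 relative to day 1 (1.04, adjusted p = 0.0348) lost its call after correction for length and GC (0.17, adjusted p = 0.71), in a fit of only the 2 days (adjusted p = 0.063) and without any of day 1 replicate 2, day 3 replicate 1 or day 3 replicate 3 (adjusted p of 0.12, 0.092 and 0.084). Chac1, which breaks down glutathione, averaged 541 ± 281, 860 ± 241 and 184 ± 33.7 and fell by 2.20 on the log2 scale on day 5 relative to day 3 (adjusted p = 0.000804), with 0.81 at the step before (adjusted p = 0.0909), −0.02 after correction (adjusted p = 0.96). That earlier step passed without day 1 replicate 1 (1.09, adjusted p = 0.043) or replicate 3 (1.11, adjusted p = 0.041). Nupr1, a stress-induced nuclear protein, averaged 2790 ± 1028, 19974 ± 1534 and 9548 ± 2108 (log2 changes 2.92 and −1.09, adjusted p of 4.82e-06 and 0.00445), the second without a call under quantile normalization (−0.41, adjusted p = 0.19). Atf3, a stress transcription factor, averaged 404 ± 26.9, 2562 ± 1550 and 702 ± 190 (2.46 and −1.70, adjusted p of 0.000194 and 0.00301). Gdf15 fell after day 3 as Trib3 did, while Sesn2 passed at neither step in the main fit of all 9 libraries. After correction for length and GC, Sesn2 fell on day 3 relative to day 1 (−0.69, limma adjusted p = 0.0035).

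Of 12 BCL2 family and effector genes, which act beside Bax and Bbc3, 6 rose and 1 fell on day 3 relative to day 1, and 3 rose and 5 fell on day 5 relative to day 3; the medians were 0.26 and −0.09. All tested genes had shares of 36.1% higher and 37.0% lower at the first step, and 34.8% and 32.4% at the second. Bik, a BH3-only gene, averaged 42.8 ± 5.92, 386 ± 16.1 and 388 ± 94.0 on days 1, 3 and 5 (log2 changes 3.15 and −0.02, limma adjusted p of 6.36e-07 and 0.92), and the second value turned to 0.40 with a call after correction for length and GC (adjusted p = 0.031). Like Bbc3, Bik was higher on both later days than on day 1 in every library. Bmf, another BH3-only gene, averaged 46.6 ± 21.1, 246 ± 8.95 and 613 ± 65.6 and rose at both steps (2.49 and 1.31, adjusted p of 3.11e-05 and 0.0032). Bad averaged 208 ± 10.8, 669 ± 107 and 606 ± 108 and rose by 1.67 on day 3 relative to day 1 (adjusted p = 7.01e-06; −0.15 on day 5 relative to day 3, adjusted p = 0.44, and 0.17 after correction, adjusted p = 0.21), with 20.5% of its exonic bases under the opposite-strand gene Gpr137.

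Beside the 10 genes, 27 genes of these lists met the rule for named genes, with 43 called changes at the 2 steps. After correction for length and GC, 42 of the 43 kept their direction and call, Trib3 on day 3 relative to day 1 being the exception. Of these, 10 moved by over 1.5 times: besides Atm and both steps of Trp63, they were Cdkn2a (0.62 and −1.09 at the 2 steps), Psrc1 (0.66), Cd82 (0.87) and Bad (0.86) on day 3 relative to day 1, and Eda2r at both steps (−0.91 and −0.95).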

How the data were processed

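The deposited table holds, per the file headers and the submitters' processing notes, log2 values of read counts that the authors divided by DESeq2 (1.36.0) size factors, after alignment with HISAT2 (2.1.0) to GRCm39. For the read counter, the annotation and the strand setting, nothing is given in the sources used here. Genes without reads hold an error text in place of a log2 value, and these cells (297330) were read as 0. Of 57107 lines, 359 repeats were dropped, which left 56748 genes. Whole reads were recovered for 100% of values (tolerance 0.01), with 16.4 to 35.1 M per library, and this depth limits only the rarest genes named. Replicates of a day differed beyond counting noise.

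The 17338 genes that reached 10 normalized counts in 3 or more libraries were tested on log2(normalized count + 1) with limma 3.58.1 (R 4.3.3), with 1 mean per day and all 9 libraries in 1 fit (6 residual degrees of freedom), and Benjamini-Hochberg adjustment over all of them at 0.05, two-sided. Because of the pseudocount, a log2 change of a low gene is understated. Fold values are ratios of mean normalized counts and hold no pseudocount. The script was tested on simulated data for day 3 relative to day 1. Of 100 genes each with a log2 change of size 1 or 2, it called 53% and 71%. Of 17138 unchanged genes it called 0.05%. A far larger share of genes differed in the real data, so these rates need not hold there, and an uncalled change is not shown to be absent. Transcript length and GC content came from the longest transcript of each gene (GENCODE M21), known for 98.3% of tested genes. Overlaps are shares of the merged exons of all annotated transcripts of a gene. The 10 genes and the 6 lists were chosen with earlier results of these data known. Named beside the 10 were Trp63, Trp73, Mdm4, Ppm1d, the 4 genes of each list with the largest called change at either step and a mean of at least 100 on 1 day, and the 3 genes most like Trp53 and Cdkn1a. A gene that met this rule is not reported here. Alternatives varied the pseudocount, filter, zeros, scaling, length and GC correction, model and libraries.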

Additional observations from a re-analysis of the deposited data

How the results depend on the processing

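The log2 changes of single genes were recomputed under 20 alternatives, and 1664 of 1756 values kept their direction and their side of the threshold; 26 lost a call, 35 gained one and 31 changed sign, of which 12 passed in at least 1 of the 2 settings. Only the comparisons that are reported for a gene were recomputed, a selection made after values were seen. With 2 pseudocounts, without genes holding a 0, with limma-voom on recovered reads (added after seeing the data) and with a replicate block, all 34 values of the 10 genes kept sign and call. Same-numbered libraries did not deviate together (correlations of −0.311 to 0.141, 2 of 9 pairs above 0.1), so the replicate block is only a check. Under it 6026 genes rose and 6180 fell on day 3 relative to day 1, and 5 of the 10 genes rose and 3 fell there. For the difference of steps 5 of the 10 passed under the block, against 4 in the main fit. Of all genes 11744 passed it, against 12264. Among the single-gene values recomputed only Chac1 gained a call, on day 3 relative to day 1. Those values leave out the difference of steps for genes that did not pass it in the main fit. The edgeR and DESeq2 alternatives were not run. Removing the length and GC trend together with the library level, as planned, put the median of all genes at −0.23 on day 5 relative to day 3 and to day 1, against 0.06 and −0.06 without it; the version printed in the text keeps each library's level and was added after this was seen. The 2 versions, the text's first, gave −0.25 and −0.24 for Cdkn1a and 0.69 and 0.70 for Trp53inp1 on day 3 relative to day 1, −0.0763 and −0.27 for Trp53inp1 on day 5 relative to day 3, −0.37 and −0.54 for Bax on day 5 relative to day 1, −0.0231 and −0.0085 for Chac1 and 0.71 and 0.72 for Mdm4 on day 3 relative to day 1, and, on day 5 relative to day 3, −0.20 and −0.39 for Mdm4, −0.14 and −0.33 for Atm, 0.36 and 0.17 for Dcxr and 0.40 and 0.21 for Bik (called in the first only), with 0.17 for Bad in the first only. Both called 5 of the 10 genes lower on day 3 relative to day 1, beside 6035 and 5936 of all 17046 genes tested. The first called 7 for the difference of steps, beside 11588 of all genes. On day 5 relative to day 3, TMM factors gave 0.0062 for Bbc3 and 0.0138 for Bik, and quantile normalization 0.24 for Dcxr. Quantile normalization and fits of only the 2 days called 2 of the 10 higher on day 5 relative to day 3, beside 5603 and 5762 of all 17338 genes. Quantile normalization called 4 of the 10 higher on day 5 relative to day 1, beside 6257 of all genes. Leaving out 1 library at a time gave 3 to 5 of the 10 lower on day 3 relative to day 1 and 1 to 2 higher on day 5 relative to day 3. Over all 17338 genes these fits gave 5967 to 6550 lower and 5323 to 6043 higher. The sign changed among uncalled values: Trp53inp1 ranged over −0.0072 to 0.29 on day 5 relative to day 1 (lowest without day 1 replicate 2), and, on day 5 relative to day 3, Bbc3 over −0.0923 to 0.0887, Atm over −0.24 to 0.92, Bik over −0.18 to 0.17 and Bad over −0.29 to 0.0105 (positive for Bbc3, Bik and Bad and negative for Atm without day 5 replicate 1; Bbc3 also 0.0160 without day 3 replicate 2), and Sesn2 over −0.23 to 0.0005 (positive without day 3 replicate 3). The cause was not tested. The depth, lowest on day 5, limits genes of few reads such as Gls2.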
